A study of Mus musculus with 10 samples.

Results

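The beige and thermogenic fat genes described here are 9 mouse genes taken by name, Ppargc1a, Ppargc1b, Prdm16, Dio2, Ebf2, Elovl3, Tmem26, Tnfrsf9 and Tbx1, and located in the count table by their NCBI mouse gene identifiers. Of the 9 genes, 8 have a place among the 18103 identifiers of the table, and Tbx1 is not analysed here. Dio2, Tnfrsf9, Ppargc1a, Ppargc1b and Ebf2 passed the filter on low counts and were tested with 13149 genes in all. Prdm16, Tmem26 and Elovl3 stayed below 3 counts in each of the 10 libraries and were not tested. Ebf2 passed the filter only through the libraries in which it was high, so its test is not used.

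RNA of 2 mesenchymal mouse breast cancer cell lines was sequenced at 7 days, with 2 libraries for each of 5 groups, from 2 independent experiments. Py2T-LT cells, a long-term culture of the Py2T mammary tumour line, received BMP2 plus a MEK inhibitor, received the MEK inhibitor alone, or were controls. MTΔECad cells, whose name marks a deletion of E-cadherin, received rosiglitazone, an agonist of the fat-cell receptor PPARγ, or were controls. The treatment protocol names usual doses of 200 ng/ml human BMP2, 40 µM PD98059 as the MEK inhibitor and 2 µM rosiglitazone, and control medium held DMSO, whereas the labels of single samples state no dose. That protocol also adds rosiglitazone after BMP2 in cancer cells, while the Py2T-LT labels name none, so it is not known here whether their medium held it. No group with BMP2 alone was analysed here. The labels do not say whether a line is 1 clone. Each p-value rests on how far the 2 experiments of a group lay apart, taken over all 5 groups and shared in part across genes.

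Brown and beige fat cells burn fuel to make heat, and they do so when cold reaches them through noradrenaline and cyclic AMP. In beige cells the transcription factors EBF2 and PRDM16 set the thermogenic identity, PGC-1α and PGC-1β (products of Ppargc1a and Ppargc1b) coactivate the genes of mitochondria and of fat oxidation, and type 2 deiodinase (Dio2) makes active thyroid hormone inside the cell. TMEM26, 4-1BB (product of Tnfrsf9) and TBX1 serve as markers of beige cells, and ELOVL3 is a fatty acid elongase that cold induces in brown fat.

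RefSeq promoter windows of GRCm38.p6 were matched to 6 of the 9 genes, as 8 windows of 250 bases before to 50 bases after a start. The 250 bases before the start are shown for Dio2, the member with the widest range of levels, for the Tnfrsf9 start inside the gene span, and for Ppargc1a, the member that differed between the lines in the direction of Dio2. The Ppargc1a start used also lies inside its gene span. Capitals mark words found by a search of both strands for 6 words. The windows lie at chr12:90739039-90739288 on the minus strand for Dio2, at chr4:150927749-150927998 on the plus strand for Tnfrsf9 and at chr5:51567726-51567975 on the minus strand for Ppargc1a.
Dio2: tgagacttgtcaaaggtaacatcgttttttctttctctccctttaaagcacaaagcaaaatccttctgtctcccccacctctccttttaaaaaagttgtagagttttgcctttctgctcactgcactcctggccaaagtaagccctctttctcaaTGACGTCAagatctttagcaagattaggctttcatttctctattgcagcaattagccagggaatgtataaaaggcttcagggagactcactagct
Tnfrsf9: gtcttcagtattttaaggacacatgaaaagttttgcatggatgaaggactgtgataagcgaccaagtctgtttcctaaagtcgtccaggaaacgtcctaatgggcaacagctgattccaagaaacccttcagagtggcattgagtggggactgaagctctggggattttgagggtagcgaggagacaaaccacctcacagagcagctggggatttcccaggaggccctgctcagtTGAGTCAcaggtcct
Ppargc1a: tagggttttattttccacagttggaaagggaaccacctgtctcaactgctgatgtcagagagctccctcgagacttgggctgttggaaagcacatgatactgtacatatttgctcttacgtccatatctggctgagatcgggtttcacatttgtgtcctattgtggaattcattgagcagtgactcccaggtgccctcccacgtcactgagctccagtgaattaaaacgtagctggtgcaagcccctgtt
The Dio2 window holds the full cyclic AMP response element TGACGTCA, with its first base 95 bases before the start, and 588 of 32851 windows of the same length hold that word (1.79%). This Tnfrsf9 window holds TGAGTCA, an AP-1 word of the form TGANTCA, 15 bases before the start, and 7.81% of windows hold that form. The nuclear receptor half-site AGGTCA, which 16.3% of windows hold, also lies 5 bases after the Tnfrsf9 start on the opposite strand, outside the bases shown. The other Tnfrsf9 window, at the annotated gene start (chr4:150919905-150920154), held none of the 6 words. In the Ppargc1a window, none of these 3 words nor CCCNNGGG (the EBF core, in 13.7% of windows), AGGTGTGA (a T-box word, in 1.28%) or CCGGAAGT (an ETS word, in 3.89%) was found. Only exact words were counted, and the Ppargc1a bases shown hold ccacgtca, which differs from TGACGTCA in its first letters. The Tmem26 window holds the EBF core as CCCTGGGG, 215 bases before the start. These are matches of letters, and binding was not measured.

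The libraries held 14659987 to 17249199 counts, so that 3 counts in a library, taken as the floor, were worth at most 0.209 CPM (read counts at a common library size, with TMM factors). Cdh1, the gene of E-cadherin, stood at 3.81 ± 1.12 CPM with rosiglitazone and 2.41 ± 0.227 CPM in controls of the MTΔECad line, against 33.8 ± 3.04 CPM in Py2T-LT controls (SD, n = 2 each). Whole-gene counts do not show the deleted part. Each of 8 mesenchymal markers was detected in both lines. The 9 epithelial markers summed to 312 to 335 CPM with BMP2 plus MEK inhibitor, 589 to 675 CPM with MEK inhibitor and 642 to 693 CPM in Py2T-LT controls. In MTΔECad cells they summed to 418 to 463 CPM with rosiglitazone and 283 to 294 CPM in controls. The summed level of 10 white adipocyte markers was 1130 to 1310 CPM with BMP2 plus MEK inhibitor, 911 to 935 CPM with MEK inhibitor and 574 to 589 CPM in controls of the Py2T-LT line, and 3740 to 4080 CPM with rosiglitazone and 1620 to 1750 CPM in controls of the MTΔECad line. Lpl, lipoprotein lipase, made up most of the control sums, with a mean of 1640 CPM in the MTΔECad control libraries and 562 CPM in those of Py2T-LT. Without Lpl the other 9 markers summed to 426 to 465 CPM with BMP2 plus MEK inhibitor, 236 to 275 CPM with MEK inhibitor and 18.6 to 21.6 CPM in Py2T-LT controls, and to 1940 to 2170 CPM with rosiglitazone and 43.1 to 44.1 CPM in MTΔECad controls. Leptin, a hormone of white fat cells, was at 0 in the 6 Py2T-LT libraries. The fat-cell marker sums were higher in treated than in control libraries of each line, whereas the members did not share 1 pattern over the groups. The part of fat-cell conversion in the member values was not tested.

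Dio2 was the most abundant of the 9 genes in Py2T-LT controls and stood at no more than 1.72 CPM in MTΔECad cells. Dio2 (NCBI 13371, chr12:90724552-90739038) had 9.58 and 8.72 CPM with BMP2 plus MEK inhibitor, 62.2 and 69.3 CPM with MEK inhibitor, and 581 and 625 CPM in Py2T-LT controls. The 3 Py2T-LT groups did not overlap, with the double treatment lowest and the controls highest. Against controls Dio2 fell by 6.04 ± 0.11 with BMP2 plus MEK inhibitor (log2 fold change ± SE, edgeR quasi-likelihood test, adjusted p = 4e-19) and by 3.2 ± 0.09 with MEK inhibitor alone (edgeR adjusted p = 2e-15). These comparisons share the control libraries. With BMP2 plus MEK inhibitor Dio2 also fell relative to MEK inhibitor alone (log2 fold change -2.85 ± 0.11, edgeR adjusted p = 4.9e-14). In MTΔECad cells Dio2 had 1.25 and 1.72 CPM with rosiglitazone and 0.766 and 1.38 CPM in controls, and the groups overlapped. The rosiglitazone difference was 0.44 ± 0.30 on the log2 scale (95% interval -0.2 to 1.08) and was not called (edgeR adjusted p = 0.46). Dio2 was lower in MTΔECad controls than in Py2T-LT controls (log2 fold change -9.11 ± 0.15, edgeR adjusted p = 9.4e-21). The annotated span of Dio2 overlaps the long non-coding gene Gm26512, which has no row of its own, and whether the counting used strand is not given in the sources used here. In bulk RNA, fewer cells that express a gene and less RNA per cell cannot be told apart.

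**Figure D1:**
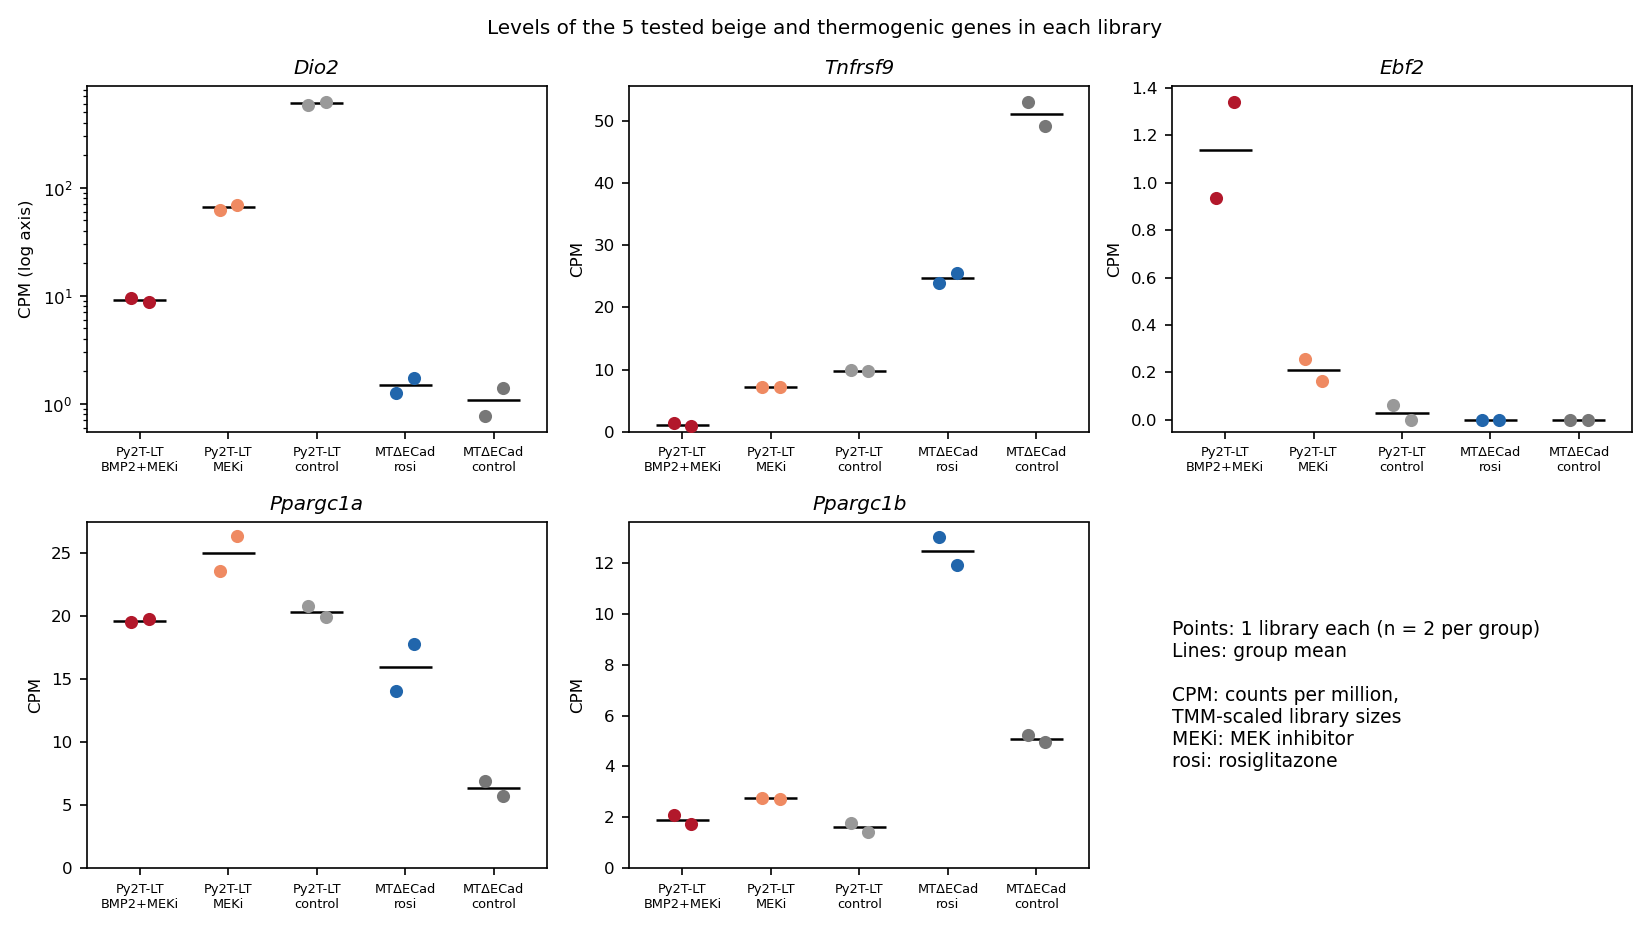
Level of each member in CPM (vertical axis, log scale for Dio2) in the 5 groups, with 1 point per library and a line at the group mean of 2 libraries. Dio2 is at 9.58 and 8.72 CPM with BMP2 plus MEK inhibitor, against 581 and 625 CPM in Py2T-LT controls, while Ppargc1a stays between 19.5 and 26.4 CPM in the 6 Py2T-LT libraries.

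Both PGC-1 coactivators rose with rosiglitazone in MTΔECad cells, and in Py2T-LT cells their fitted differences from controls lay between -0.05 and 0.77 on the log2 scale. Ppargc1a (NCBI 19017, chr5:51454249-52115853) had 14.1 and 17.8 CPM with rosiglitazone and 6.96 and 5.76 CPM in MTΔECad controls. Each rosiglitazone library was above each control library, and the log2 fold change was 1.33 ± 0.15 (edgeR adjusted p = 1.5e-06). In Py2T-LT cells Ppargc1a had 19.5 and 19.8 CPM with BMP2 plus MEK inhibitor, 23.6 and 26.4 CPM with MEK inhibitor, and 20.8 and 19.9 CPM in controls. The double treatment differed from controls by -0.05 ± 0.13 (95% interval -0.32 to 0.21, edgeR adjusted p = 0.78) and MEK inhibitor alone by 0.30 ± 0.13 (95% interval 0.03 to 0.56, edgeR adjusted p = 0.12), neither of them called. Relative to MEK inhibitor alone, BMP2 plus MEK inhibitor lowered Ppargc1a by a called -0.35 ± 0.13 (edgeR adjusted p = 0.034). That call was lost without BMP2 plus MEK inhibitor replicate 1 (adjusted p = 0.13 with edgeR) or replicate 2 (0.1), without MEK inhibitor replicate 2 (0.22) and with DESeq2 (0.092). Between the lines, Ppargc1a was lower in MTΔECad controls than in Py2T-LT controls (log2 fold change -1.68 ± 0.15, edgeR adjusted p = 3.1e-09).

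Ppargc1b (NCBI 170826, chr18:61291445-61400756) had 13 and 11.9 CPM with rosiglitazone and 5.22 and 4.95 CPM in MTΔECad controls. It rose by 1.29 ± 0.17 on the log2 scale (edgeR adjusted p = 1.4e-05), and the groups did not overlap. In Py2T-LT cells the levels were 2.08 and 1.74 CPM with BMP2 plus MEK inhibitor, 2.78 and 2.74 CPM with MEK inhibitor, and 1.79 and 1.44 CPM in controls. Both MEK inhibitor libraries were highest of these 6, and the double treatment overlapped the controls. MEK inhibitor alone raised Ppargc1b by 0.77 ± 0.25 (edgeR adjusted p = 0.04), a call lost without MEK inhibitor replicate 1 (adjusted p = 0.12 with edgeR) or replicate 2 (0.13), without control replicate 1 (0.056) or replicate 2 (0.26), with only the compared groups in the model (0.086) and with DESeq2 (0.13). The double treatment differed from controls by 0.24 ± 0.27 (95% interval -0.33 to 0.8, edgeR adjusted p = 0.53) and from MEK inhibitor alone by -0.53 ± 0.24 (edgeR adjusted p = 0.094). Ppargc1b was higher in MTΔECad controls than in Py2T-LT controls (log2 fold change 1.65 ± 0.23, edgeR adjusted p = 2.9e-06), where Ppargc1a was lower. Mir378a, Gm46627 and Gm52354 overlap its span and have no rows.

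Among the regulators of beige identity, Ebf2 was detected in a few counts, mostly with BMP2 plus MEK inhibitor. Ebf2 (NCBI 13592, chr14:67233292-67430952) had 14 and 23 counts with BMP2 plus MEK inhibitor, 4 and 3 counts with MEK inhibitor, 1 and 0 counts in Py2T-LT controls, and 0 counts in the 4 MTΔECad libraries. The double treatment was highest, at 0.937 and 1.34 CPM, and 6 of 10 libraries were below 3 counts. Against controls the counts gave a ratio of 37.1 for BMP2 plus MEK inhibitor (95% counting interval 6.26 to 1510). Against MEK inhibitor alone the ratio was 5.55 (2.44 to 14.7), and the ratio of MEK inhibitor to controls was 6.69 (0.859 to 301). The fitted log2 fold change against controls was 4.89 ± 0.86 with all libraries, 7.19 without control replicate 1, which held the only control count, and 4.06 without control replicate 2. Such intervals cover counting error only. Because Ebf2 entered the test only through the libraries where it was high, no p-value is given for it, and it is left out of the counts of called members. Prdm16 (NCBI 70673, chr4:154316122-154637360), which encodes the coregulator that partners EBF2, had 3 counts over all 10 libraries, 2 of them with BMP2 plus MEK inhibitor and 1 with MEK inhibitor alone.

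Of the beige surface markers, Tnfrsf9 fell with each treatment. Tnfrsf9 (NCBI 21942, chr4:150920155-150946104), whose product 4-1BB is also a costimulatory receptor of T cells, had 1.47 and 0.872 CPM with BMP2 plus MEK inhibitor, 7.24 and 7.18 CPM with MEK inhibitor, and 9.92 and 9.75 CPM in Py2T-LT controls. In MTΔECad cells it had 23.9 and 25.5 CPM with rosiglitazone and 53 and 49.2 CPM in controls. Groups did not overlap within either line, with the treated libraries below their controls. The log2 fold change was -3.08 ± 0.20 for BMP2 plus MEK inhibitor against controls (edgeR adjusted p = 9.1e-11), -2.63 ± 0.21 for BMP2 plus MEK inhibitor against MEK inhibitor (edgeR adjusted p = 2.2e-09) and -1.05 ± 0.11 for rosiglitazone (edgeR adjusted p = 7.7e-07). For MEK inhibitor alone it was -0.45 ± 0.15 (edgeR adjusted p = 0.038). This last call was lost without MEK inhibitor replicate 1 (adjusted p = 0.12 with edgeR) or replicate 2 (0.15), without control replicate 1 (0.11) or replicate 2 (0.12), with library totals as the scale (0.058), with only the compared groups (0.066) and with DESeq2 (0.087). MTΔECad controls were above Py2T-LT controls by 2.38 ± 0.13 (edgeR adjusted p = 7.2e-13), so that this marker was high in the line where Dio2 was low. The summed level of the 4 haematopoietic markers with a row was 2.56 to 3.08 CPM with BMP2 plus MEK inhibitor, 6.3 to 7.5 CPM with MEK inhibitor, 2.94 to 3.94 CPM in Py2T-LT controls, 4.33 to 4.95 CPM with rosiglitazone and 6.4 to 7.14 CPM in MTΔECad controls. Of 10 markers listed, 4 have a row, and Cd68 made up most of each sum. It averaged from 2.12 CPM with BMP2 plus MEK inhibitor to 6.52 CPM with MEK inhibitor. Cd4 was at 0 in all groups but MEK inhibitor, and the part of blood cells in the Tnfrsf9 values was not tested. Tmem26 (NCBI 327766, chr10:68723746-68782655) had 2 counts in all, 1 in each library with BMP2 plus MEK inhibitor. Elovl3 (NCBI 12686, chr19:46131897-46135694) had 0 counts in the 10 libraries, which allows a level of up to 0.209 CPM in any library.

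**Figure D2:**
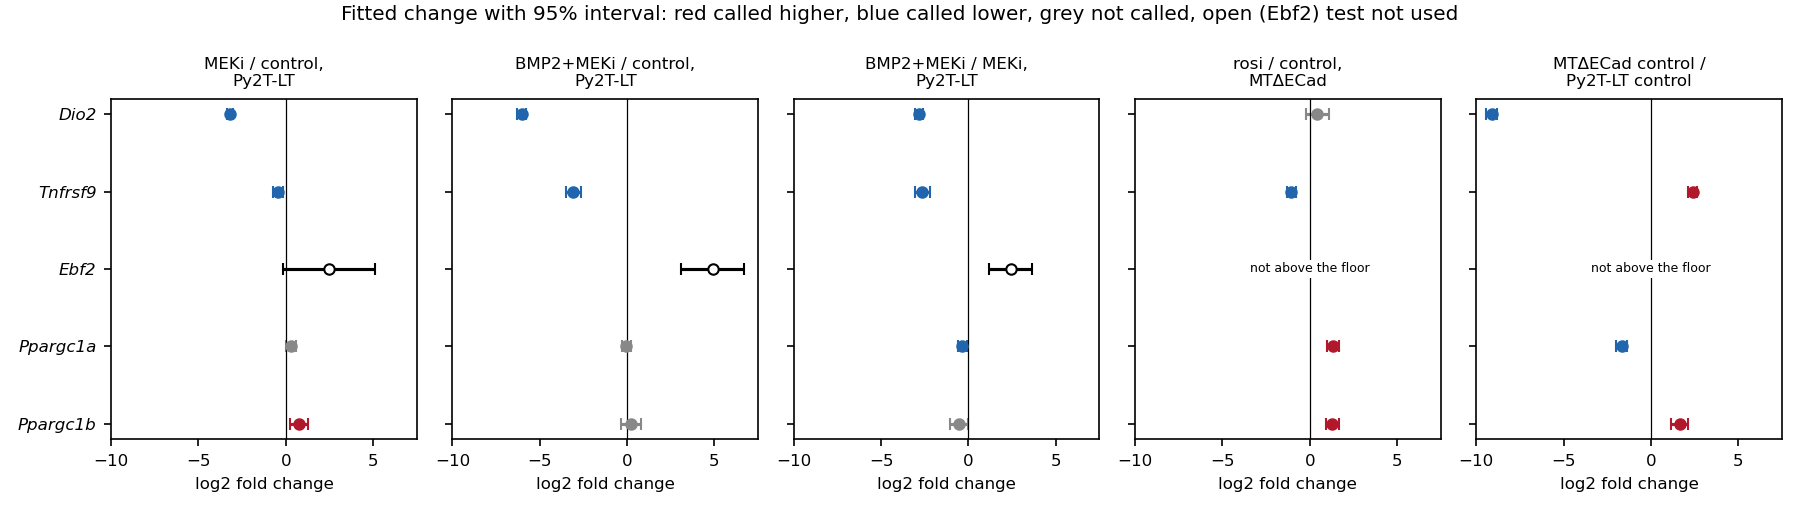
Fitted log2 fold change (horizontal axis) of the 5 tested members in the 5 comparisons, first group over second, with points for the estimate, bars for the 95% interval, red for called higher, blue for called lower, grey for not called and open symbols for Ebf2, whose test is not used. Tnfrsf9 is blue in each of the 4 treatment comparisons, and Ppargc1a and Ppargc1b are both red with rosiglitazone.

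Counted over the 4 tested members other than Ebf2, 1 rose and 2 fell with MEK inhibitor, where 16.5% of all tested genes were called (8.98% higher, 7.52% lower). With BMP2 plus MEK inhibitor against controls 0 rose and 2 fell, where 38.5% were called (19.1% higher, 19.4% lower). Relative to MEK inhibitor alone, 0 members rose and 3 fell with the double treatment, against 37.3% of all genes called (17.9% higher, 19.4% lower). In both comparisons with 0 higher calls, 0 members were higher at an unadjusted p under 0.05 in edgeR and 0 were called higher by DESeq2. With rosiglitazone 2 rose and 1 fell, against 13.2% of all genes (7.95% higher, 5.26% lower). Between control lines 2 were higher and 2 lower in MTΔECad, against 61% of all genes (29.3% higher, 31.7% lower), a share at which calls on single genes are common. Leaving Dio2 out took 1 lower call from each of the 3 Py2T-LT comparisons and from the comparison of lines, and none from rosiglitazone.

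The median log2 fold change of the 5 tested members was 0.3 with MEK inhibitor, -0.05 with BMP2 plus MEK inhibitor against controls, -0.53 with BMP2 plus MEK inhibitor against MEK inhibitor, 0.44 with rosiglitazone and -1.68 between lines, where the medians over all tested genes lay between -0.03 and 0.01. Without Dio2 these medians were 0.53, 0.09, -0.44, 0.65 and -0.02 in the same order of comparisons. Without Ebf2 they were -0.08, -1.57, -1.58, 0.87 and -0.02, and without both Dio2 and Ebf2 0.3, -0.05, -0.53, 1.29 and 1.65. Where Ebf2 is counted, its fitted change enters the median, although its test is not used. That change was 0 with rosiglitazone, from 0 counts in both groups, and -2.3 between lines, from 0 against 1 count. With so few members the median depends on which genes are counted. Its sign differed without Dio2 for BMP2 plus MEK inhibitor against controls, without Ebf2 for MEK inhibitor, and without the pair between lines.

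The summed level of the members turned on Dio2 as well. With Dio2 the sum was 33.7 and 32.6 CPM with BMP2 plus MEK inhibitor, 96.1 and 106 CPM with MEK inhibitor and 613 and 657 CPM in Py2T-LT controls, in that order the lowest, middle and highest of the line. In MTΔECad cells it was 52.2 and 56.9 CPM with rosiglitazone and 66 and 61.3 CPM in controls. Dio2 made up 94.7% and 95.3% of the sum in Py2T-LT controls and 1.16% and 2.25% in MTΔECad controls. Without Dio2 the sum was 24.1 and 23.8 CPM with BMP2 plus MEK inhibitor, 33.9 and 36.5 CPM with MEK inhibitor and 32.6 and 31.1 CPM in Py2T-LT controls, and 51 and 55.2 CPM with rosiglitazone and 65.2 and 59.9 CPM in MTΔECad controls. Without this gene each MTΔECad library lay above each Py2T-LT library, while with it the Py2T-LT controls were highest. That order was carried by Tnfrsf9: without both genes the sum was 27.1 and 29.7 CPM with rosiglitazone and 12.2 and 10.7 CPM in MTΔECad controls, and 22.6 and 23 CPM with BMP2 plus MEK inhibitor, 26.7 and 29.3 CPM with MEK inhibitor and 22.7 and 21.4 CPM in Py2T-LT controls. The MTΔECad controls were then the lowest group.

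**Figure D3:**
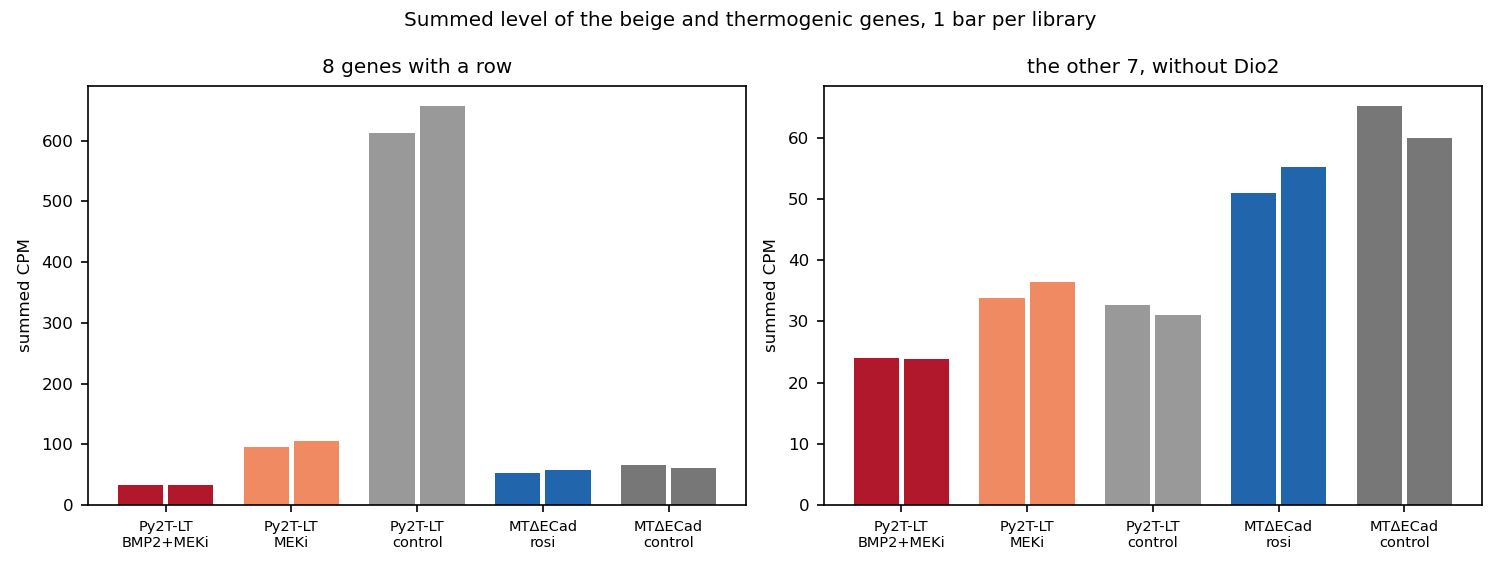
Summed CPM of the members in each library (vertical axis), with Dio2 and without it, by group, with 1 bar per library. With Dio2 the Py2T-LT controls are highest at 613 and 657 CPM, and without Dio2 the MTΔECad controls are highest at 65.2 and 59.9 CPM.

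Rosiglitazone in MTΔECad cells and BMP2 plus MEK inhibitor in Py2T-LT cells were compared by the difference of their effects, a contrast added after the values had been seen, in which line and treatment cannot be told apart. The rosiglitazone effect minus the BMP2 plus MEK inhibitor effect was 1.38 ± 0.20 on the log2 scale for Ppargc1a (edgeR adjusted p = 1.9e-05), 6.48 ± 0.37 for Dio2 (edgeR adjusted p = 3.5e-11) and 2.03 ± 0.24 for Tnfrsf9 (edgeR adjusted p = 1.8e-06). For Ppargc1b it was 1.06 ± 0.33 (edgeR adjusted p = 0.021), a call lost without BMP2 plus MEK inhibitor replicate 2 (adjusted p = 0.079 with edgeR), Py2T-LT control replicate 1 (0.13), rosiglitazone replicate 1 (0.065) or MTΔECad control replicate 2 (0.055), and with DESeq2 (0.077). These 4 called members, all with a positive difference, compare with 24.8% of all tested genes called in this contrast (13.3% higher, 11.6% lower). Tnfrsf9 fell in both lines, and its fall was smaller with rosiglitazone.

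Divided by the length of its exons, so that genes can be compared, the order of the members differed between the lines. In the Py2T-LT control group Dio2 was highest at 104 CPM per kb, ahead of Tnfrsf9 at 3.61, Ppargc1a at 3.09 and Ppargc1b at 0.404. With MEK inhibitor the order was Dio2 at 11.3 CPM per kb, Ppargc1a at 3.79, Tnfrsf9 at 2.65 and Ppargc1b at 0.691. With BMP2 plus MEK inhibitor Ppargc1a led at 2.98 CPM per kb, followed by Dio2 at 1.57, Ppargc1b at 0.479, Tnfrsf9 at 0.431 and Ebf2 at 0.164. In MTΔECad cells Tnfrsf9 led, at 9.07 CPM per kb with rosiglitazone and 18.8 CPM per kb in controls. Ppargc1b came next at 3.12 CPM per kb with rosiglitazone and 1.27 in controls, then Ppargc1a at 2.42 and 0.965, and Dio2 at 0.255 and 0.184. Neighbours in these orders did not overlap between libraries, except Ppargc1b (0.437 to 0.52 CPM per kb) and Tnfrsf9 (0.32 to 0.541 CPM per kb) with BMP2 plus MEK inhibitor.

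The genes most like each member were taken by Pearson correlation of log2 CPM over the 10 libraries, which come from only 5 groups, and are given as a description. For Dio2 these were Msln (r = 0.992), Bcl6 (r = 0.9917) and Gda (r = 0.9905). Gda was at 3.84 to 4.69 CPM with BMP2 plus MEK inhibitor, 14.1 to 17.3 CPM with MEK inhibitor and 43.6 to 49.3 CPM in Py2T-LT controls, and at 1.03 to 1.11 CPM with rosiglitazone and 0.626 to 0.766 CPM in MTΔECad controls, the same order of groups as Dio2 over a narrower range. For Tnfrsf9 they were Ebf1 (r = 0.9926), Mlkl (r = 0.992) and Afap1l2 (r = 0.9918). Ebf1, the fat-cell relative of Ebf2, was at 173 to 189 CPM with BMP2 plus MEK inhibitor, 259 to 272 CPM with MEK inhibitor, 315 to 317 CPM in Py2T-LT controls, 401 to 403 CPM with rosiglitazone and 452 to 482 CPM in MTΔECad controls. For Ppargc1a the nearest were Hacd2 (r = 0.9764), Nav3 (r = 0.9701) and Tfrc (r = 0.9699), and for Ppargc1b Prkar2b (r = 0.9948), Uqcrfs1 (r = 0.9929) and Adamts12 (r = 0.9909). The low counts of Ebf2 tracked Hs6st1 (r = 0.9903), Klf10 (r = 0.9834) and Fst (r = 0.9823). Correlations above 0.9 were common, with 68 genes for Ppargc1a and 534 for Ppargc1b.

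Genes that surround the members in the thermogenic program were counted in 10 lists. Each pair of percentages in brackets gives, for that comparison, the shares of all tested genes called higher and lower, and a list count near them shows nothing about the list. Of the heat-producing proteins and cycles, 13 of 20 were tested. With rosiglitazone 6 rose and 1 fell (7.95%, 5.26%). The 6 include Cox8b and Ucp3, which passed the filter on low counts only through the rosiglitazone libraries. With BMP2 plus MEK inhibitor 3 rose and 4 fell against controls (19.1%, 19.4%) and 3 rose and 4 fell against MEK inhibitor (17.9%, 19.4%), counts close to those shares. The 3 that rose include Cidea in both comparisons. It passed the filter on low counts only through the BMP2 plus MEK inhibitor libraries. With MEK inhibitor alone 1 rose and 0 fell (8.98%, 7.52%), with 2 lower at an unadjusted p under 0.05 in edgeR and 0 with DESeq2. Between lines 3 were higher and 3 lower in MTΔECad (29.3%, 31.7%). Ucp1, the uncoupling protein that defines brown fat heat production, had 0 counts with BMP2 plus MEK inhibitor, 7 with MEK inhibitor, 4 in Py2T-LT controls and 0 in both MTΔECad groups, and it was not tested. Cox8b, a cytochrome oxidase subunit of brown fat and muscle, had 219 counts with rosiglitazone and 1 in MTΔECad controls, a ratio of 223 (95% counting interval 39.6 to 8850). Ucp3 averaged 5.28 ± 1.15 CPM with rosiglitazone and 0.459 ± 0.0588 CPM in MTΔECad controls (SD, n = 2 each, log2 fold change 3.5 ± 0.39). Because of how it entered the test, no p-value is given for Ucp3. Cidea, a lipid droplet protein of brown fat, had 22 counts with rosiglitazone and 0 in MTΔECad controls, at least 3.73-fold higher, and 42 counts with BMP2 plus MEK inhibitor and 0 in Py2T-LT controls, at least 7.02-fold higher. Alpl and Ckb, a phosphatase and a kinase of creatine cycling, were called in opposite directions. Alpl rose with BMP2 plus MEK inhibitor to 45.6 ± 1.16 CPM and with MEK inhibitor to 13.1 ± 2.7 CPM, against 7.63 ± 0.515 CPM in Py2T-LT controls (log2 fold changes 2.58 ± 0.13 and 0.77 ± 0.15, edgeR adjusted p = 2.1e-12 and 0.00065). In MTΔECad cells Alpl was lower with rosiglitazone, at 11.1 ± 0.15 CPM, than in controls, at 27.7 ± 1.14 CPM. Ckb fell with BMP2 plus MEK inhibitor to 18.8 ± 0.373 CPM, against 38.7 ± 2.64 CPM in Py2T-LT controls (log2 fold change -1.04 ± 0.12, edgeR adjusted p = 6.3e-07).

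Of the adrenergic and cyclic AMP genes, which carry the cold signal, 16 of 18 were tested. Against controls 2 rose and 6 fell with MEK inhibitor (8.98%, 7.52%), 4 rose and 4 fell with BMP2 plus MEK inhibitor (19.1%, 19.4%), and 4 rose and 0 fell with rosiglitazone (7.95%, 5.26%), with 1 lower at an unadjusted p under 0.05 in edgeR and 0 with DESeq2. The 4 that rose with BMP2 plus MEK inhibitor include Adra2a, which passed the filter on low counts only through those libraries. Relative to MEK inhibitor, 5 rose and 2 fell with the double treatment (17.9%, 19.4%), and 7 were higher and 5 lower in MTΔECad controls than in Py2T-LT controls (29.3%, 31.7%). Adrb3, the fat-cell β-adrenergic receptor, had 2 counts with rosiglitazone and 0 in the other groups. Pde4d, a cyclic AMP phosphodiesterase, fell with MEK inhibitor to 14.1 ± 0.371 CPM, against 31.8 ± 7.29 CPM in controls (log2 fold change -1.17 ± 0.13, edgeR adjusted p = 1.2e-06). Prkar2b, a regulatory subunit of protein kinase A, rose with rosiglitazone to 243 ± 4.04 CPM, against 126 ± 4.5 CPM in MTΔECad controls (log2 fold change 0.95 ± 0.08, edgeR adjusted p = 2.5e-08).

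In the thyroid hormone list, around Dio2, 13 of 18 genes were tested. There 7 rose and 1 fell with BMP2 plus MEK inhibitor against controls (19.1%, 19.4%), 4 rose and 1 fell with BMP2 plus MEK inhibitor against MEK inhibitor (17.9%, 19.4%), and 3 rose and 1 fell with MEK inhibitor (8.98%, 7.52%). With rosiglitazone 6 rose and 1 fell (7.95%, 5.26%), and 2 were higher and 5 lower in MTΔECad than in Py2T-LT controls (29.3%, 31.7%). Hr, a corepressor of the thyroid hormone receptor, rose to 31.1 ± 2.27 CPM with BMP2 plus MEK inhibitor, against 5.18 ± 0.519 CPM in Py2T-LT controls (log2 fold change 2.58 ± 0.15, edgeR adjusted p = 7.5e-12). Thrsp, a thyroid-responsive lipogenic gene, had 67 counts with rosiglitazone and 2 in MTΔECad controls, a ratio of 34.1 (9.08 to 288). Thrb, a thyroid hormone receptor, had 43 counts with rosiglitazone and 4 in MTΔECad controls, a ratio of 10.9 (3.98 to 42).

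Of the PGC-1 partners and genes of mitochondrial biogenesis, 17 of 20 were tested, and with rosiglitazone 4 rose and 0 fell (7.95%, 5.26%), with 0 lower at an unadjusted p under 0.05 in edgeR and 0 with DESeq2. Cs, the citrate synthase of the mitochondrial matrix, averaged 615 ± 45.6 CPM with rosiglitazone and 302 ± 0.926 CPM in MTΔECad controls (log2 fold change 1.03 ± 0.08, edgeR adjusted p = 2.6e-09). Cycs, cytochrome c, averaged 14.5 ± 2.58 CPM with rosiglitazone and 6.03 ± 0.853 CPM in MTΔECad controls (log2 fold change 1.26 ± 0.17, edgeR adjusted p = 1.5e-05). With MEK inhibitor 3 rose and 2 fell (8.98%, 7.52%), and with BMP2 plus MEK inhibitor 3 rose and 0 fell against controls (19.1%, 19.4%), with 2 lower at an unadjusted p under 0.05 in edgeR and 0 with DESeq2. Against MEK inhibitor 4 rose and 0 fell (17.9%, 19.4%), with 0 lower at an unadjusted p under 0.05 and 0 with DESeq2, and between lines 4 were higher and 5 lower in MTΔECad (29.3%, 31.7%). Pparg, the nuclear receptor that PGC-1α coactivates, rose with BMP2 plus MEK inhibitor to 25.1 ± 0.0117 CPM, against 3.54 ± 0.562 CPM in Py2T-LT controls (log2 fold change 2.82 ± 0.14, edgeR adjusted p = 6.6e-13). With rosiglitazone Pparg was at 62.5 ± 0.988 CPM, against 68 ± 1.04 CPM in MTΔECad controls, and was not called (log2 fold change -0.12 ± 0.09, edgeR adjusted p = 0.5). Ppara, the receptor that drives fat oxidation genes, had 99 counts with BMP2 plus MEK inhibitor and 0 in Py2T-LT controls, at least 16.6-fold higher.

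The list of PRDM16 partners and brown fat regulators had 21 of 24 genes tested. It gave 5 higher and 2 lower with MEK inhibitor (8.98%, 7.52%), 6 higher and 3 lower with BMP2 plus MEK inhibitor against controls (19.1%, 19.4%), and 3 higher and 5 lower against MEK inhibitor (17.9%, 19.4%). The 6 higher and the 3 higher include Ebf4, which passed the filter on low counts only through the BMP2 plus MEK inhibitor libraries. With rosiglitazone 4 were higher and 0 lower (7.95%, 5.26%), with 2 lower at an unadjusted p under 0.05 in edgeR and 0 with DESeq2. Between lines 8 were higher and 7 lower in MTΔECad (29.3%, 31.7%), close to the shares of all genes. Irf4, which works with PGC-1α in brown fat, rose to 7.3 ± 0.557 CPM with MEK inhibitor (log2 fold change 3.47 ± 0.30, edgeR adjusted p = 4.4e-08) and to 4.69 ± 0.379 CPM with BMP2 plus MEK inhibitor (log2 fold change 2.83 ± 0.32, edgeR adjusted p = 3.5e-07), against 0.653 ± 0.314 CPM in Py2T-LT controls. Cebpa, an adipocyte transcription factor, averaged 103 ± 5.42 CPM with rosiglitazone and 54.4 ± 4.83 CPM in MTΔECad controls (log2 fold change 0.92 ± 0.13, edgeR adjusted p = 0.00013). Zfp423, which holds fat cells in the white state by binding EBF2, also rose with rosiglitazone, to 18.8 ± 1.13 CPM, against 8.82 ± 1.31 CPM in controls (log2 fold change 1.1 ± 0.21, edgeR adjusted p = 8e-04).

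Of the other brown and beige genes, 11 of 20 were tested, with 1 higher and 2 lower for MEK inhibitor (8.98%, 7.52%), 4 higher and 5 lower for BMP2 plus MEK inhibitor against controls (19.1%, 19.4%) and 4 higher and 3 lower against MEK inhibitor (17.9%, 19.4%). For rosiglitazone 4 were higher and 2 lower (7.95%, 5.26%), and between lines 6 higher and 3 lower (29.3%, 31.7%). The 4 include Ear2, which passed the filter on low counts only through the rosiglitazone libraries. Slc36a2 and P2rx5, both described as surface markers of brown or beige fat, differed from each other. Slc36a2 had 189 counts with BMP2 plus MEK inhibitor and 94 with MEK inhibitor, against 1 in Py2T-LT controls, ratios of 190 (33.6 to 7530) and 89.8 (15.7 to 3590). With rosiglitazone it had 344 counts, against 2 in MTΔECad controls, a ratio of 175 (48.1 to 1450). P2rx5 fell with BMP2 plus MEK inhibitor to 1.48 ± 0.368 CPM, against 6.39 ± 0.415 CPM in Py2T-LT controls (log2 fold change -2.12 ± 0.22). The surface markers Tnfrsf9, P2rx5 and Slc36a2 were thus called in both directions under BMP2 plus MEK inhibitor.

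In the list of factors secreted by thermogenic fat, 7 of 12 were tested, with 2 higher and 1 lower for MEK inhibitor (8.98%, 7.52%), 5 higher and 1 lower for BMP2 plus MEK inhibitor against controls (19.1%, 19.4%) and 3 higher and 1 lower against MEK inhibitor (17.9%, 19.4%). For rosiglitazone 3 were higher and 2 lower (7.95%, 5.26%), and between lines 4 higher and 1 lower (29.3%, 31.7%). Fndc5, the precursor of irisin, averaged 67.9 ± 0.615 CPM with rosiglitazone and 20.2 ± 0.767 CPM in MTΔECad controls (log2 fold change 1.75 ± 0.12, edgeR adjusted p = 1.2e-09). Il6 had 62 counts with BMP2 plus MEK inhibitor and 1 in Py2T-LT controls, a ratio of 62.2 (10.8 to 2500). Around Elovl3, 10 of 11 long-chain fatty acid elongase genes were tested, with 2 higher for MEK inhibitor (8.98%, 7.52%), 3 higher for BMP2 plus MEK inhibitor against controls (19.1%, 19.4%), and 1 higher and 1 lower against MEK inhibitor (17.9%, 19.4%). Against Py2T-LT controls 0 were called lower in either comparison, with 1 in each at an unadjusted p under 0.05 in edgeR and 0 with DESeq2. With rosiglitazone 2 were higher and 1 lower (7.95%, 5.26%), and between lines 4 were higher and 2 lower (29.3%, 31.7%). Elovl6, which lengthens palmitate, rose with BMP2 plus MEK inhibitor to 135 ± 14.6 CPM, against 93 ± 1.22 CPM in Py2T-LT controls (log2 fold change 0.54 ± 0.08), and fell with rosiglitazone to 70.5 ± 4.5 CPM, against 96.4 ± 1.31 CPM in MTΔECad controls (log2 fold change -0.45 ± 0.08, edgeR adjusted p = 0.00063).

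Around Tnfrsf9, the 6 genes of the 4-1BB ligand and its adaptors were all tested. Of these, 2 fell with MEK inhibitor (8.98%, 7.52%), 1 fell with BMP2 plus MEK inhibitor against controls (19.1%, 19.4%), 1 rose and 1 fell against MEK inhibitor (17.9%, 19.4%), and 1 was higher and 2 lower between lines (29.3%, 31.7%). With rosiglitazone 0 were called (7.95%, 5.26%), with 0 at an unadjusted p under 0.05 in edgeR and 0 with DESeq2. The ligand gene Tnfsf9 was called in none of the 5 comparisons. Birc3, an inhibitor-of-apoptosis ligase in the receptor complex, fell with BMP2 plus MEK inhibitor to 3.21 ± 0.672 CPM, against 8.63 ± 0.261 CPM in Py2T-LT controls (log2 fold change -1.44 ± 0.19, edgeR adjusted p = 3.9e-06). Of the T-box family, 5 of 9 genes were tested. With MEK inhibitor 1 rose (8.98%, 7.52%), with BMP2 plus MEK inhibitor 1 rose against controls (19.1%, 19.4%), and against MEK inhibitor 1 rose and 1 fell (17.9%, 19.4%). Between lines 2 were higher and 1 lower (29.3%, 31.7%), and 0 were called with rosiglitazone (7.95%, 5.26%), with 0 at an unadjusted p under 0.05 in edgeR and 0 with DESeq2. Of 9 tested white adipocyte markers, set beside these for reference, 8 rose with MEK inhibitor (8.98%, 7.52%), 8 with BMP2 plus MEK inhibitor against controls (19.1%, 19.4%), 5 against MEK inhibitor (17.9%, 19.4%) and 6 with rosiglitazone (7.95%, 5.26%), and 4 were higher and 1 lower between lines (29.3%, 31.7%).

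**Figure D4:**
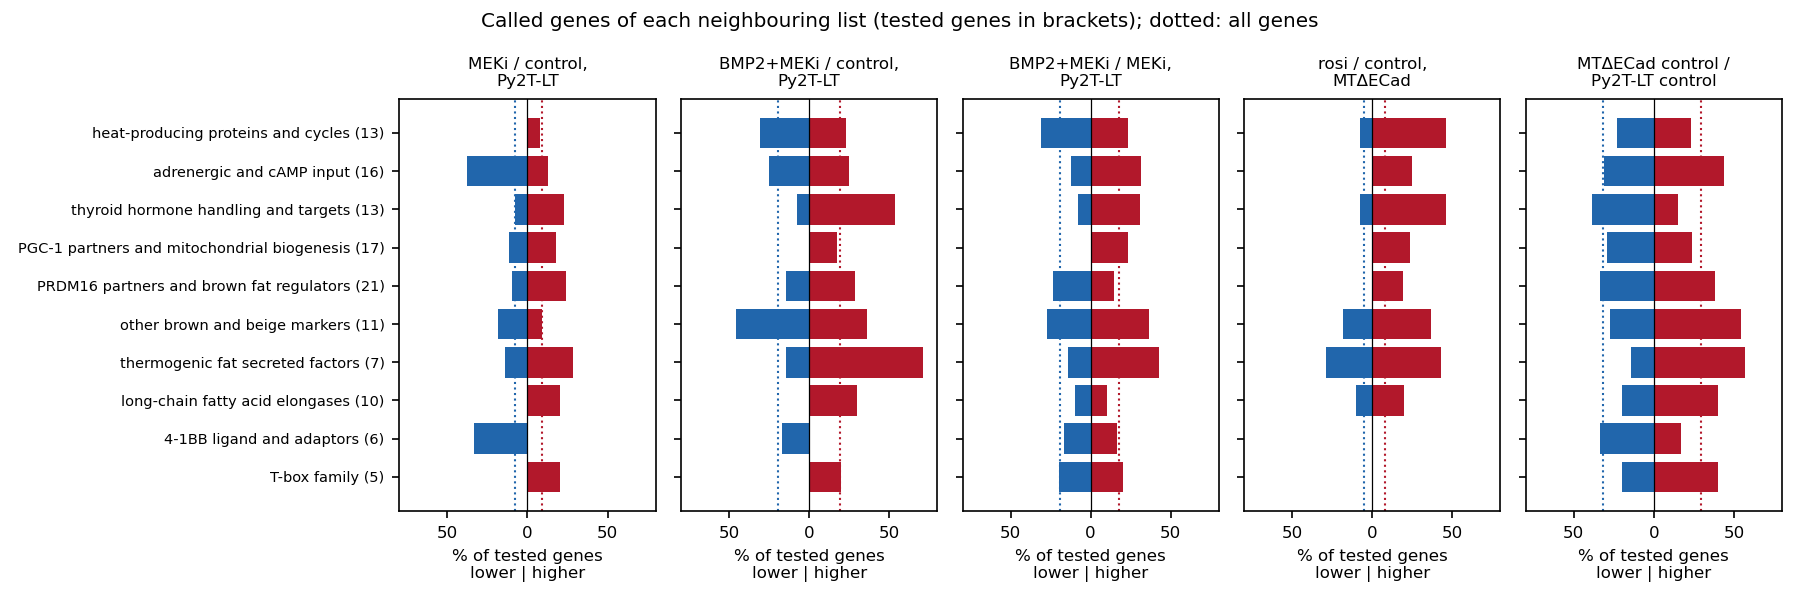
Percent of the tested genes of each list called lower (left) or higher (right) in each comparison, with dotted lines at the percent over all tested genes. Rosiglitazone gave 6 higher calls among 13 heat-producing genes and 0 calls among the 4-1BB and T-box lists. The 6 include Cox8b and Ucp3, which passed the filter only through the rosiglitazone libraries.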

How the data were processed

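Per the labels' protocols a stranded total RNA kit was used, although poly-A RNA is also named. The deposited table holds the authors' raw counts of reads per gene, aligned with STAR to mm10 per the submitters' processing notes. The counting tool and annotation are not named there. NCBI identifiers were paired with RefSeq names of GRCm38.p6 (18057 of 18103; the other 46 held 0.799% of counts). In R 4.3.3 with edgeR 4.0.16, filterByExpr (minimum count 10, total 15) kept 13149 genes, and 1 robust quasi-likelihood model with TMM scaling and a mean per group covered the 10 libraries (5 residual degrees of freedom, common biological coefficient of variation 7.07%). A call has a Benjamini-Hochberg adjusted p of at most 0.05 within its comparison. Ratios of fewer than 10 counts carry exact 95% conditional intervals, and folds against 0 are bounds from 3 counts per library. Exon lengths came from GENCODE M21. Scripts were tested on simulated data. Alternatives were DESeq2 1.42.0, other scaling, filters, groups in the model, left-out libraries and a replicate block. The members and lists were chosen with earlier results of these data known. List genes are named from the 3 called with the largest change in a comparison. Ucp1, Adrb3, Tnfsf9, Lep, Cdh1, Cd4, and Pparg and Alpl with rosiglitazone were added after their values were seen.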

Additional observations from a re-analysis of the deposited data

How the results depend on the processing

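With each library left out in turn, log2 fold changes for BMP2 plus MEK inhibitor against controls were -6.12 to -5.98 for Dio2 and -3.49 to -2.73 for Tnfrsf9. Against MEK inhibitor they were -2.92 to -2.77 for Dio2, -3.03 to -2.28 for Tnfrsf9 and -0.43 to -0.26 for Ppargc1a. For MEK inhibitor they were -3.28 to -3.12 for Dio2, 0.62 to 0.94 for Ppargc1b and -0.46 to -0.44 for Tnfrsf9. For rosiglitazone they were 1.15 to 1.49 for Ppargc1a, 1.23 to 1.35 for Ppargc1b and -1.1 to -0.99 for Tnfrsf9. Calls lost in this way are given with each gene above. With only the compared groups in the model 1 member was called for MEK inhibitor, and with DESeq2 1 for MEK inhibitor and 2 for BMP2 plus MEK inhibitor against MEK inhibitor. Among all genes, calls without 1 library were 1445 to 2177 for MEK inhibitor (2170 with all libraries, 1445 without Py2T-LT control replicate 2), 3892 to 4368 (5064) for BMP2 plus MEK inhibitor against controls, 3823 to 4000 (4908) against MEK inhibitor, 1113 to 1350 for rosiglitazone (1737 with all, 1113 without MTΔECad control replicate 1), 6920 to 7468 (8020) between lines and 2608 to 3027 (3265) for the difference of effects. For the 4 tested members other than Ebf2, 206 alternative values belong to a called result, of which 184 stayed called in the same direction, 22 lost the call and 0 changed sign. Another 50 belong to results not called, and stayed so. The median of the members was 0.53 for MEK inhibitor and -0.02 between lines without Dio2. Between lines the median of all 5 tested members was -1.35 with DESeq2 and 0 without Py2T-LT control replicate 1. Both values were the fitted change of Ebf2, which had 0 counts in MTΔECad controls and, without that replicate, 0 in Py2T-LT controls. For rosiglitazone the median of the 5 ran from 0.1 to 0.94 without 1 library. With library totals as the scale, the median of all genes between lines shifted by -0.13. Same-numbered replicates deviated together with correlations of -0.11 to 0.1 over 10 pairs of groups. With 1 deviation per group, this cannot tell whether same-numbered libraries came from the same experiment. With a replicate block, 3 members were called for MEK inhibitor, 3 for rosiglitazone and 4 between lines, none of them Ebf2. In the 5 comparisons, in the order of the gene counts above, 2245, 5148, 5024, 1833 and 8091 genes were called with it. For members under 3 counts, depth allows no statement on a difference.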
